A study of Rattus norvegicus with 24 samples.

Results

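Nppa, Nppb, Myh6, Myh7 and Acta1, the genes for atrial and B-type natriuretic peptide, the α and β cardiac myosin heavy chains and skeletal α-actin, were followed across 4 groups of rat heart septum. The genes were chosen by Ensembl identifier and expected chromosome and not by measured values, although earlier results of these data were known. All 5 of the 5 identifiers were found on the expected chromosomes among the 30562 annotated genes of the count table. All 5 also passed the filter on low counts that left 17347 genes for testing, and no member had fewer than 4244 reads in any library.

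Nppa and Nppb encode secreted peptide hormones that cardiac muscle releases when it is stretched, and that promote salt excretion and widen vessels. Myh6 encodes the faster α heavy chain that predominates in the adult rodent ventricle, and Myh7 encodes the slower β heavy chain of the foetal rodent ventricle. Acta1 encodes the actin of skeletal muscle, which the foetal heart also uses and which the adult heart largely replaces with cardiac actin. In overloaded or injured rodent hearts the natriuretic peptides, Myh7 and Acta1 usually go up and Myh6 goes down, a pattern known as the foetal gene programme and often summarised by the Myh7 to Myh6 ratio.

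Septum was taken on day 28 from Sprague-Dawley rats, all of which had undergone cardiac ischemia-reperfusion, a temporary block of blood flow to heart muscle. All rats carried a cannula into the cerebral ventricles for continuous infusion of leptin, the fat-cell hormone that acts on hypothalamic neurons, or of its vehicle. In 2 groups brown adipose tissue (BAT, a fat that burns fuel for heat) was intact, with vehicle in one and leptin in the other. In the remaining groups leptin was infused into rats whose BAT had been ablated or had lost its sympathetic nerve supply. Each group held 6 separately numbered rats with 1 mRNA-seq library each. There was no operated group with vehicle and no uninjured group in the data used, so the effect of BAT surgery without leptin, and of injury itself, cannot be told apart from these groups. Age and sex were not given in the sources used here.

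On the mRatBN7.2 assembly the natriuretic peptide genes lie side by side on the plus strand of chromosome 5, Nppb (ENSRNOG00000008141) at 158416866 to 158418168 and Nppa (ENSRNOG00000008176) at 158429042 to 158430351, with 10873 bp and 0 annotated genes between them. The myosin genes lie side by side on the minus strand of chromosome 15, Myh6 (ENSRNOG00000025757) at 28417616 to 28441720 and Myh7 (ENSRNOG00000016983) at 28446550 to 28468217, 4829 bp apart. Acta1 (ENSRNOG00000017786) lies on the minus strand of chromosome 19 at 51883715 to 51886742. Values are sums over all exons of a gene, UTRs included. A 116 bp gene on the opposite strand lies within Myh6 and had 14 to 125 reads per library. A 112 bp gene on the same strand lies within Myh7 and had 29 to 257 reads. Both counts are small beside those of the myosins, whose lowest library held 302310 reads for Myh6 and 189943 for Myh7. The 2 myosin transcripts are near-identical copies over long stretches, as are skeletal and cardiac actin, so reads that fit both copies could be lost or misplaced by the counting and these levels are uncertain to that extent.

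In 17 of the 24 rats, described below, Nppa and Nppb, which are neighbours, moved together and Acta1 moved with Myh7. The stretches just before the start of Nppa, Nppb and Acta1 are shown for that reason. They are RefSeq sequences of the GRCr8 assembly, at chr5:163711934-163712183, chr5:163699758-163699954 and chr19:68784195-68784444, written 5′ to 3′ on the strand of the gene. Capitals mark every match, on either strand, to the GATA factor words (AGATAA or else TGATAA, with the forms AGATAG and likewise TGATAG), the M-CAT word of TEAD factors (CATTCC), the CArG box of serum response factor and the TATA word (TATAAA).
Nppa: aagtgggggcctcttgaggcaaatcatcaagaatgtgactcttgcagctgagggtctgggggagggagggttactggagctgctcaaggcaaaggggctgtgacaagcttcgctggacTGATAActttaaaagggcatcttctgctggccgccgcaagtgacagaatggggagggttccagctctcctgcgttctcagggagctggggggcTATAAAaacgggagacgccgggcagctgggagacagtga
Nppb: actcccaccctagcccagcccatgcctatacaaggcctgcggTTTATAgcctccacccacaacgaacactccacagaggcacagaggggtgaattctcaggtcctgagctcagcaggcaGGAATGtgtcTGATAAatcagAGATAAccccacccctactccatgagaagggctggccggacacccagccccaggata
Acta1: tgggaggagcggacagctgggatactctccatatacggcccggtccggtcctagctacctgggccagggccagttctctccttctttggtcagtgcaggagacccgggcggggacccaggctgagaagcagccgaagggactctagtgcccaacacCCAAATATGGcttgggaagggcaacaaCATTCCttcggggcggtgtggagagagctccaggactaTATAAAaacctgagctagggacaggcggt

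Nppa held 1 GATA word, whose last base lay 127 bases before the start, and a TATA word whose last base lay at 34. Nppb held 2 GATA words, ending 116 and 105 bases before the start given in the table, next to an M-CAT word on the other strand ending at 126, and a TATA word on the other strand ending at 203. The Nppb sequence stops 53 bases short of that start because another annotated start lies there. Acta1 held a CArG box ending at 85, an M-CAT word ending at 62 and a TATA word ending at 24. Of 33469 rat promoters of the same 250 bp, 27.0% held a GATA word, 12.1% an M-CAT word and 12.9% the TATA word, while 501 promoters held a CArG box, and none of these words overlapped another in the printed stretches. The matches describe letters only, and no binding was measured. The table's start for Myh6 lies 1966 bp, and for Myh7 1657 bp, inside the outermost annotated start of the gene, so these windows are not printed.

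The libraries held 71587993 to 122910706 reads assigned to genes. Levels are given as CPM, the usual depth-scaled read count of a gene, with library sizes scaled by edgeR's TMM. The mitochondrial chromosome took 23.1% to 45.9% of the reads. Myh6 and Myh7 ranked 1 and 2 among 30525 nuclear genes by mean share of reads, and Nppa 16, Acta1 90 and Nppb 340. Per kb of exonic length Nppa ranked 9, Myh6 13, Myh7 14, Acta1 87 and Nppb 147. Other markers of heart or of other cell types were not analysed here, because the identifiers could not be paired with names. In bulk tissue, fewer cells of a type and less RNA per cell cannot be told apart.

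The labels number the rats, and the 7 with the highest numbers stood apart from the other 17 and were unevenly spread over the groups. They comprised 3 with vehicle, 1 with leptin and intact BAT, 1 after ablation and 2 after denervation. The boundary was known from earlier results of these data, where the main axis of variation over all genes separated these rats. The contrast of the sets is therefore a description. Of all nuclear reads, the members together took 4.74% to 6.10% in the high-numbered rats and 1.38% to 3.91% in the other 17. Myh6 was at 14252 to 21602 CPM in the high-numbered rats and 2729 to 12005 CPM in the others. Myh7 was at 17100 to 32537 CPM against 1640 to 9732 CPM. For both myosins the sets did not overlap. An edgeR contrast of the sets called 67.2% of all 17347 tested genes, so a difference between them was common to most genes. How many of all genes did not overlap between the sets was not counted. Nppb (346 to 801 against 46.1 to 431 CPM) and Acta1 (766 to 1639 against 80.4 to 1048 CPM) were mostly higher in the high-numbered rats, with overlap. Nppa, at 928 to 8004 against 319 to 4892 CPM, overlapped widely. What else set these rats apart was not given in the sources used here. The median level of long transcripts relative to short ones also differed, with a log2 gradient of 0.34 ± 0.10 (SD, n = 7) against -0.17 ± 0.16 (SD, n = 17), and its part in these levels was not tested. Each comparison below therefore has both the fit as designed and a fit in which membership of the high-numbered set is a term, called the rat-number term.

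**Figure D1:**
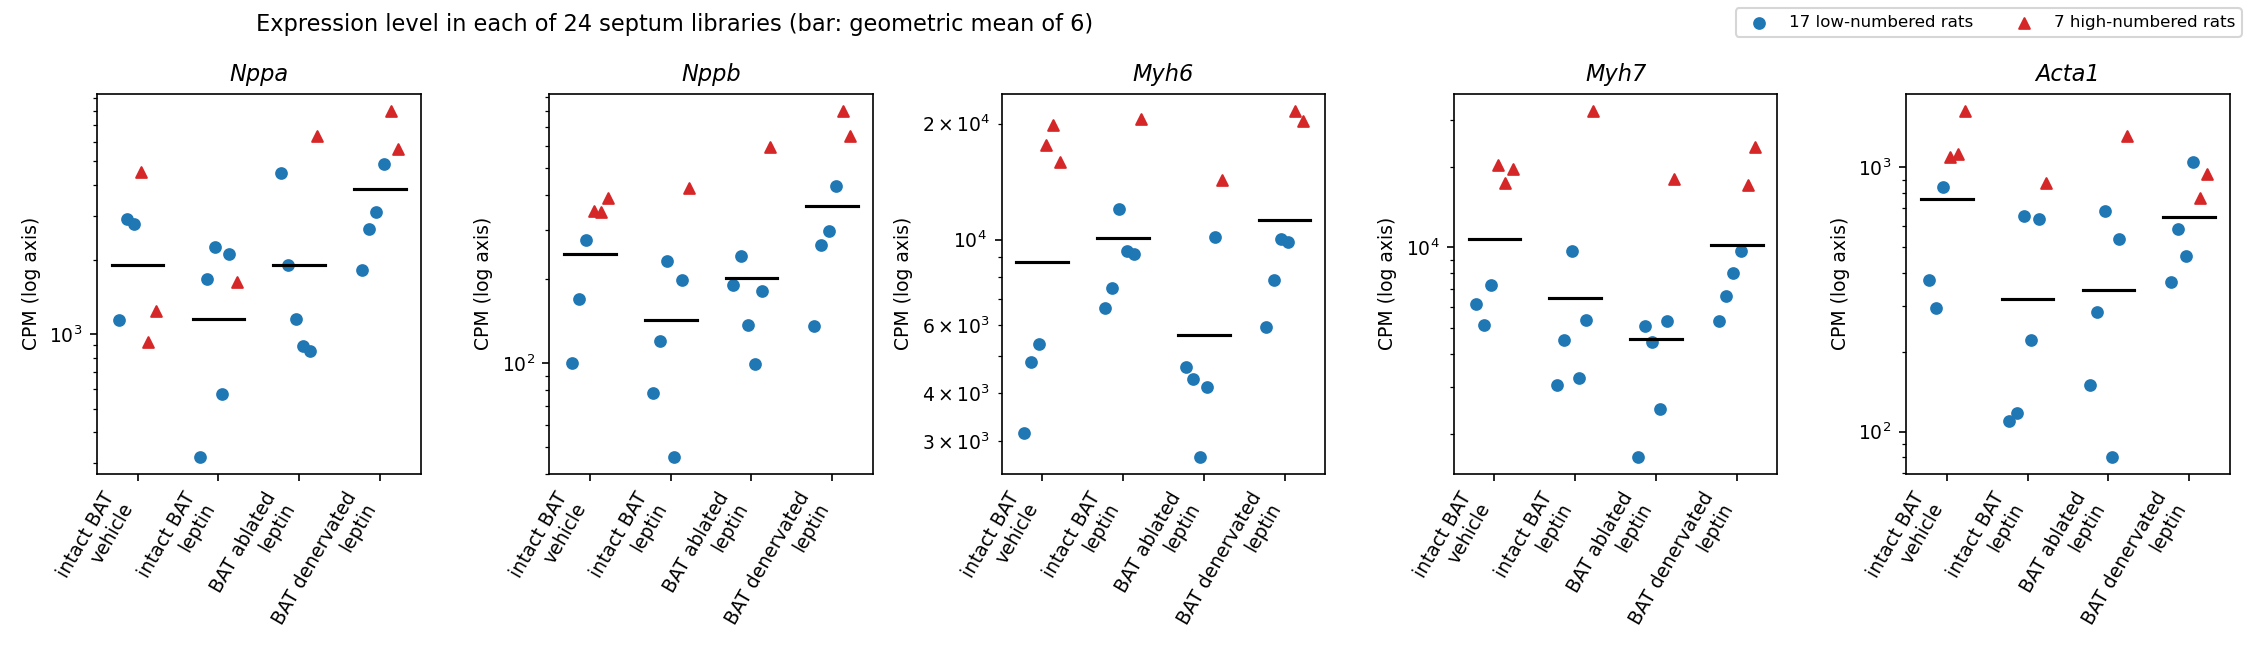
Level of each gene in CPM (log axis) in the 24 libraries, by group, with triangles for the 7 high-numbered rats, circles for the 17 low-numbered rats and bars for the geometric mean of 6 libraries. For Myh6 and Myh7 every triangle lies above every circle, whereas for Nppa the triangles spread from 928 to 8004 CPM.

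No member passed the test in any of the 6 comparisons of the groups as designed. With leptin against vehicle, edgeR called 0 of 5 members and 0.674% of all genes tested, and an unadjusted p below 0.05 was reached by 0 members and 23.4% of all genes. After ablation against intact BAT with leptin, 0 of 5 members and 3.03% of all genes were called, and 0 members and 18% of all genes had an unadjusted p below 0.05. After denervation against intact BAT with leptin, 0 of 5 members and 0% of all genes were called, and 2 members (Nppa and Nppb) and 16.3% of all genes had an unadjusted p below 0.05. In the comparisons of ablation with vehicle, of denervation with vehicle and of ablation with denervation, 0 of 5 members and 0% of all genes were called. An unadjusted p below 0.05 was reached there by 0 members and by 10.9%, 2.01% and 4.48% of all genes. DESeq2 also called 0 of 5 members in each comparison, against 10.7% of all genes for leptin against vehicle, 8.66% for ablation and 3.75% for denervation against intact BAT, 0.121% for ablation against vehicle and 0% in the others. limma-voom with sample weights called 3 for leptin against vehicle (Nppb, Myh7 and Acta1, beside 60.6% of all genes), 3 for denervation against intact BAT (Nppa, Nppb and Acta1, beside 22.6%), 3 for ablation against vehicle (both myosins and Acta1, beside 55.6%), 1 for denervation against vehicle (Myh7, beside 46.3%) and 0 in the other comparisons (17.4% for ablation against intact BAT and 0.288% for ablation against denervation). With the rat-number term edgeR called 1 of 5 members, Myh6, for ablation against intact BAT (18.6% of all genes), and 0 of 5 elsewhere, against 6.13% of all genes for leptin against vehicle, 6.65% for denervation against intact BAT and 0% in the other comparisons. At an unadjusted p below 0.05 the fit with the term had 1 of 5 members for leptin against vehicle (25.7% of all genes) and 1 for ablation against intact BAT (33.3%). It had 2 for denervation against intact BAT (26.5%), 2 for denervation against vehicle (3.8%), 2 for ablation against denervation (8.54%) and 0 for ablation against vehicle (8.57%).

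**Figure D2:**
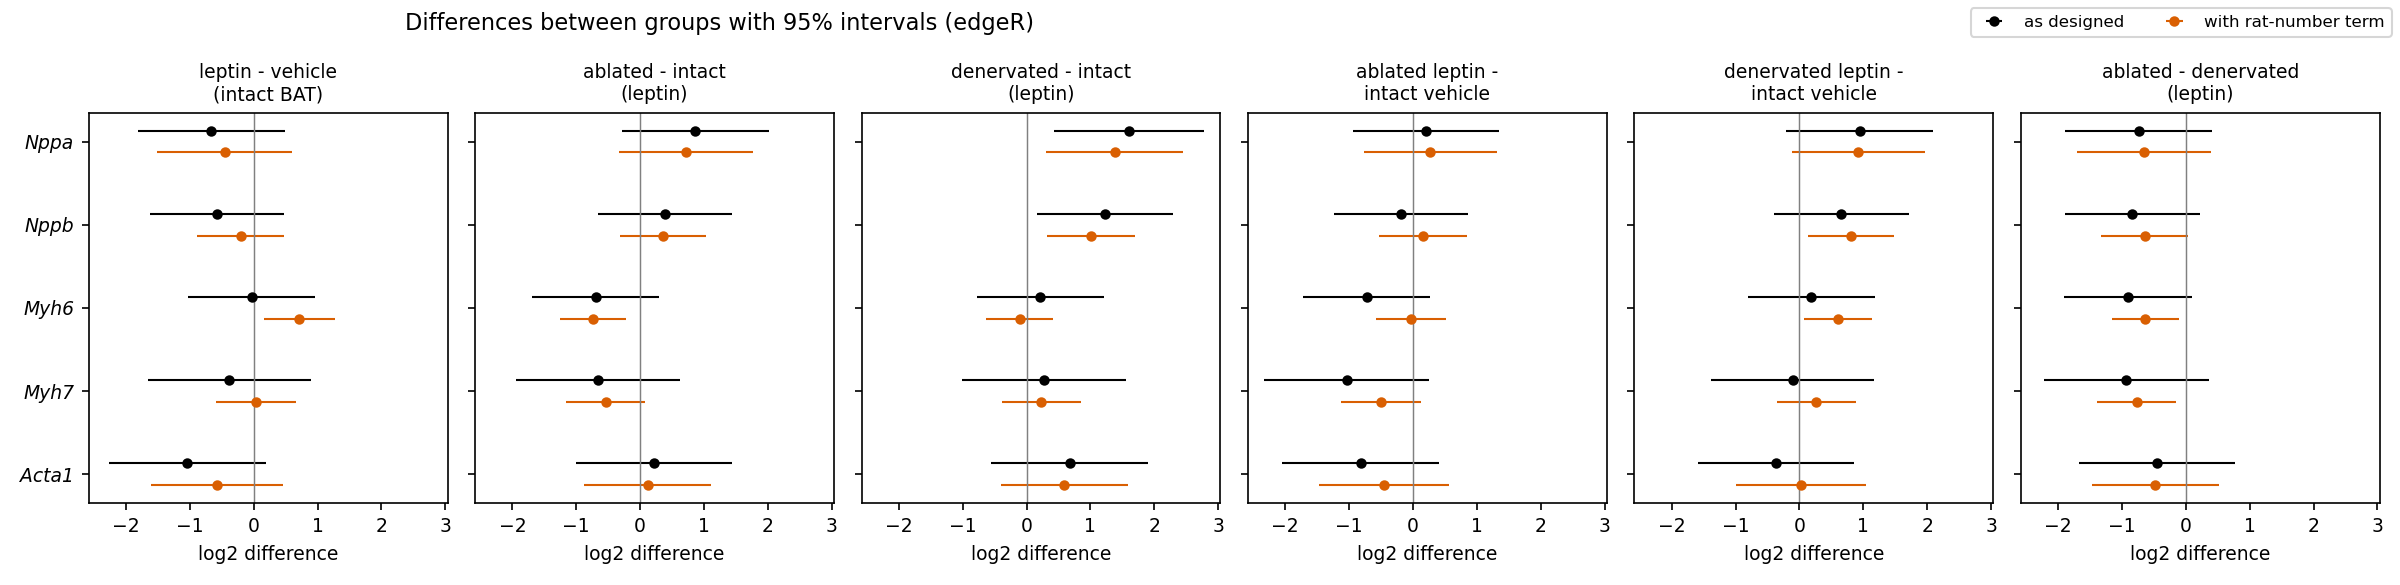
Log2 difference of each gene (horizontal axis) in the 6 comparisons, with 95% intervals from edgeR, as designed in black and including the rat-number term in orange. Nppa and Nppb lie furthest to the right for denervation against intact BAT with leptin, at 1.61 and 1.23 as designed, and the intervals of both myosins narrow when the term is added.

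Both natriuretic peptide genes had their highest mean after denervation and their lowest with leptin and intact BAT. Nppa ran from 1810 through a median of 4004 to 8004 CPM after denervation, and from 319 through 1650 to 2260 CPM with leptin and intact BAT. In 5 of the 6 denervated rats Nppa lay above the highest of the 6 rats with leptin and intact BAT. Nppa ran from 928 through 2017 to 4534 CPM with vehicle, and from 854 through 1527 to 6331 CPM after ablation. These groups overlapped each other and both of the former. By mean the order was denervation (4347 ± 2279 CPM, SD, n = 6), ablation (2602 ± 2278), vehicle (2259 ± 1412) and leptin with intact BAT (1427 ± 802), and no neighbours in that order differed beyond their spread.

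The Nppa difference between denervation and intact BAT with leptin was the largest of any member in any comparison, a log2 difference of 1.61 ± 0.57 (SE), or 3.05-fold, with a 95% interval of 0.43 to 2.78. It did not pass (edgeR adjusted p = 0.185). Of all tested genes 99.1% had a smaller log2 difference, but Nppa was also a variable gene. Once group means were removed, 84.0% of all tested genes varied less between rats. Of the 1268 genes with a mean of at least 100 CPM, 90.5% varied less. The rat-number term gave 1.38 ± 0.52 (edgeR adjusted p = 0.0991), the low-numbered rats alone (4 and 5) 1.17 ± 0.56 (edgeR adjusted p = 0.218), and the term with a length gradient per library 1.02 (edgeR adjusted p = 0.277). Denervated rats also had a lower mitochondrial share of reads, 26.7% ± 1.97 (SD, n = 6) against 33.5% ± 5.35 with leptin and intact BAT. The share was 35.2% ± 1.17 with vehicle and 34.7% ± 8.24 after ablation. With mitochondrial genes left out the Nppa difference was 1.60. That step does not adjust for what the share may mark, and the part of the share in the difference was not tested. With limma-voom and sample weights the Nppa difference was 1.61 and passed (limma adjusted p = 0.0267).

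Nppb too was highest after denervation and lowest with leptin and intact BAT, with less separation. It ran from 136 through a median of 364 to 801 CPM after denervation and from 46.1 through 159 to 423 CPM with leptin and intact BAT. It ran from 99.8 through 312 to 392 CPM with vehicle and from 99.1 through 185 to 592 CPM after ablation. Of the denervated rats 3 of 6 lay above all 6 rats with leptin and intact BAT, and the rest overlapped them. The log2 difference was 1.23 ± 0.51 (SE), or 2.35-fold, with an interval of 0.17 to 2.30 (edgeR adjusted p = 0.247). With the rat-number term it was 1.01 ± 0.33, still short of the threshold (edgeR adjusted p = 0.0627). In the 12 fits with that term that each left out 1 library the adjusted p ranged from 0.0306 to 0.182. It passed without replicate 3 or 5 of leptin with intact BAT (edgeR adjusted p = 0.0306 and 0.0362) and without denervation replicate 1 (edgeR adjusted p = 0.0307). The log2 difference ran from 0.83 to 1.21 over the 12 fits.

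Against vehicle, denervation gave Nppa and Nppb log2 differences of 0.94 ± 0.56 and 0.66 ± 0.51 (SE), neither of which passed (edgeR adjusted p = 1.00 for both). With the term they were 0.92 ± 0.51 and 0.81 ± 0.33 (edgeR adjusted p = 0.999 for both). Ablation against intact BAT with leptin gave Nppa 0.87 ± 0.56 (edgeR adjusted p = 0.450) and Nppb 0.39 ± 0.51 (edgeR adjusted p = 0.755). The rat-number term gave 0.72 ± 0.51 and 0.36 ± 0.33 (edgeR adjusted p = 0.337 and 0.469). The ablation values for Nppa rested on replicates 1 and 6, at 4471 and 6331 CPM, while the other 4 rats lay between 854 and 1903 CPM. Leptin against vehicle gave -0.66 ± 0.56 for Nppa (edgeR adjusted p = 0.455) and -0.57 ± 0.51 for Nppb (edgeR adjusted p = 0.479). Their 95% intervals were -1.81 to 0.49 and -1.63 to 0.48. With the rat-number term the differences were -0.45 ± 0.51 and -0.20 ± 0.33 (edgeR adjusted p = 0.608 and 0.736). The comparisons with intact BAT and leptin share those 6 libraries, so their values are not independent of each other.

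Per kb of exonic length, where genes can be set beside each other, Nppa was the strongest of the members after denervation, at 3605 ± 1890 CPM per kb (SD, n = 6), and with ablation at 2157 ± 1889. With vehicle Nppa (1873 ± 1171), Myh6 (1836 ± 1230) and Myh7 (2137 ± 1218 CPM per kb) stood at like levels. Nppb stayed the lowest of the 5 in each group by this scale, at no more than 415 CPM per kb in any group mean.

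Myh6, the faster heavy chain, had its lowest mean after ablation. It ran from 2729 through a median of 4510 to 14252 CPM after ablation and from 6660 through 9264 to 20592 CPM with leptin and intact BAT, and 4 of the 6 rats with ablation lay below every rat of the latter group. With vehicle it ran from 3140 through 10619 to 19802 CPM, and after denervation from 5948 through 9943 to 21602 CPM. In the order of the means, denervation (12608 ± 6658 CPM, SD, n = 6), vehicle (11093 ± 7433), leptin with intact BAT (10878 ± 5102) and ablation (6715 ± 4494), no neighbours differed beyond their spread.

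For ablation against intact BAT with leptin, Myh6 was the 1 of 5 members called by edgeR with the rat-number term. In that fit 18.6% of all tested genes were called, so 1 of 5 members is near the share over all genes. As designed the Myh6 difference was -0.70 ± 0.48 on the log2 scale (SE, edgeR adjusted p = 0.490). With the rat-number term it was -0.74 ± 0.25, or 1.67-fold lower, with an interval of -1.26 to -0.22 (edgeR adjusted p = 0.0417). The size was much the same in both fits and the error smaller with the term. The call was lost in 9 of the 12 fits with the term that each left out 1 library, where the adjusted p ranged from 0.00135 to 0.114 and the log2 difference from -1.06 to -0.61. It was kept without replicate 1 or 6 of leptin with intact BAT or ablation replicate 5. Within the low-numbered rats (5 and 5) the difference was -0.78 ± 0.30 (edgeR adjusted p = 0.0973), and with a length gradient per library beside the term it was -0.78 (edgeR adjusted p = 0.0759).

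For leptin against vehicle the Myh6 log2 difference was -0.03 ± 0.48 as designed (SE, interval -1.02 to 0.97, edgeR adjusted p = 0.976), but the sets of rats were unevenly placed in it. Among the low-numbered rats Myh6 was at 3140, 4812 and 5359 CPM with vehicle and at 6660, 7484, 9193, 9335 and 12005 CPM with leptin. All 5 leptin rats lay above all 3 vehicle rats, as did all 4 denervated low-numbered rats, at 5948 to 10036 CPM. In the low-numbered rats 13.2% of all tested genes did not overlap between leptin and vehicle, and 6.02% between denervation and vehicle. Among the high-numbered rats the 3 vehicle libraries were at 15879 to 19802 CPM and the single leptin library at 20592 CPM. The difference was 1.01 ± 0.36 in the low-numbered rats (edgeR adjusted p = 0.171) and, once the term was added, 0.72 ± 0.27 (edgeR adjusted p = 0.0964), and neither passed. For denervation against vehicle the low-numbered rats gave 0.93 ± 0.37 and the fit with the term 0.61 ± 0.26 (edgeR adjusted p = 1.00 and 0.999). Both comparisons use the same vehicle rats, of which 3 were low-numbered.

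Myh7, the slower heavy chain, ran from 5117 through a median of 12322 to 20308 CPM with vehicle and from 3044 through 4909 to 32537 CPM with leptin and intact BAT. After ablation it ran from 1640 through 4746 to 18079 CPM, and after denervation from 5300 through 8864 to 23897 CPM. The vehicle group held 3 high-numbered rats, at 17413 to 20308 CPM, and 3 low-numbered rats, at 5117 to 7232 CPM. All 4 groups overlapped. The largest Myh7 difference was that of ablation from vehicle, at -1.04 ± 0.62 (SE, edgeR adjusted p = 0.483), and with the rat-number term -0.51 ± 0.31 (edgeR adjusted p = 0.634). Ablation against denervation gave -0.93 ± 0.62 (edgeR adjusted p = 0.890), and the term moved it to -0.77 ± 0.30 (edgeR adjusted p = 0.543). Leptin against vehicle gave -0.38 ± 0.62 as designed (edgeR adjusted p = 0.716) and 0.03 ± 0.30 once the term was added (edgeR adjusted p = 0.959).

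The Myh7 to Myh6 ratio compares both transcripts within a library and does not depend on library scaling. It was computed per kb of exonic length. With vehicle it ran from 0.897 through a median of 1.22 to 1.99, and Myh7 exceeded Myh6 in 5 of 6 rats. With leptin and intact BAT it ran from 0.353 through 0.602 to 1.61, and Myh7 exceeded Myh6 in 1 of 6 rats, the high-numbered one. After ablation it ran from 0.358 through 0.900 to 1.65 (3 of 6), and after denervation from 0.807 through 0.880 to 1.20 (2 of 6). As a share of both transcripts, Myh7 made up 47.3% to 66.6% with vehicle, 26.1% to 61.7% with leptin and intact BAT, 26.3% to 62.3% after ablation and 44.7% to 54.5% after denervation, with SDs of 6.49, 12.4, 14.3 and 3.79 percentage points (n = 6 each). The denervated rats had the smallest SD of the 4 groups and the ablated rats the largest.

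**Figure D3:**
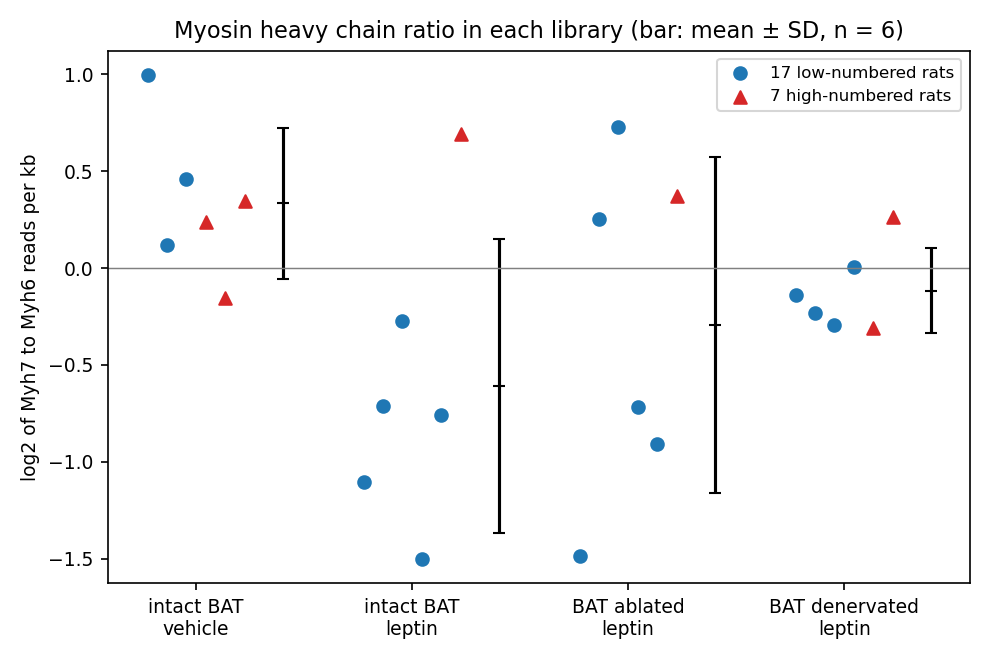
Log2 of the Myh7 to Myh6 ratio per kb (vertical axis; 0 means equal levels) in each library by group, with triangles for the high-numbered rats and bars for the mean and SD of 6 libraries. All 5 low-numbered leptin rats with intact BAT and all 4 low-numbered denervated rats lie below all 3 low-numbered vehicle rats. The high-numbered leptin rat with intact BAT lies at 0.69.

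The ratio was lower with leptin than with vehicle by a log2 difference of -0.94, or 1.92-fold, with a 95% permutation interval of -1.68 to -0.17. The exact two-sided permutation test gave p = 0.0260, and Benjamini-Hochberg adjustment over the 6 comparisons gave 0.0844, so it did not pass. In the low-numbered rats the difference was -1.39, with no overlap of the 5 leptin and 3 vehicle rats (exact permutation p = 0.0179, the smallest that these numbers allow, adjusted p = 0.0571). The high-numbered rats held 1 leptin library, at 1.61, against vehicle at 0.897 to 1.27, the opposite order. Permuting within both sets of rats gave -0.75 (exact permutation p = 0.0804, adjusted p = 0.241). Leaving out replicate 6 of leptin with intact BAT, the high-numbered rat, gave -1.20 (exact permutation adjusted p = 0.0130), and it was the only 1 of 12 libraries whose omission brought the adjusted p under 0.05, over a range of 0.0130 to 0.156. That omission sets low-numbered leptin rats alone against a vehicle group with 3 high-numbered rats, so the difference is mixed with that of the sets. The low-numbered leptin rats had Myh7 at 3044 to 9732 CPM against 5117 to 7232 CPM with vehicle, which overlap, and Myh6 without overlap as given above.

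Denervation against vehicle gave a log2 ratio difference of -0.45, with an interval of -0.86 to -0.07 (exact permutation p = 0.0281, adjusted p = 0.0844). Permuting within both sets of rats gave -0.47 (exact permutation p = 0.0286, adjusted p = 0.171). Denervation against intact BAT with leptin gave 0.49, with an interval of -0.23 to 1.14 (exact permutation p = 0.162, adjusted p = 0.244). Permuted within the sets it was 0.35 (exact permutation p = 0.251, adjusted p = 0.377). Without the high-numbered leptin rat the difference was 0.75 (exact permutation adjusted p = 0.0195), but that leptin group then held low-numbered rats only. In the low-numbered rats of both groups the difference was 0.70 (exact permutation p = 0.0238, adjusted p = 0.0571). Ablation differed from intact BAT with leptin by 0.32 (interval -0.76 to 1.42, exact permutation p = 0.504), from vehicle by -0.63 (interval -1.54 to 0.27, exact permutation p = 0.134) and from denervation by -0.18 (interval -1.04 to 0.67, exact permutation p = 0.647). As a fold, the interval for ablation against intact BAT with leptin runs from 0.591 to 2.67, so the data do not settle a direction there. A mean of per-library ratios and a difference of group means answer different questions, and edgeR's Myh7 minus Myh6 difference for leptin against vehicle was -0.35, in which the library with 32537 CPM of Myh7 weighs more.

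Acta1, the skeletal actin, had its highest mean with vehicle. It ran from 294 through a median of 969 to 1639 CPM with vehicle and from 110 through 430 to 872 CPM with leptin and intact BAT, where 3 of 6 rats lay below every vehicle rat. After ablation it ran from 80.4 through 411 to 1311 CPM, and after denervation from 367 through 676 to 1048 CPM. In the order of the means, vehicle (895 ± 506 CPM, SD, n = 6), denervation (695 ± 270), ablation (508 ± 455) and leptin with intact BAT (436 ± 326), no neighbours differed beyond their spread. Leptin against vehicle gave a log2 difference of -1.04 ± 0.60 (SE), or 2.05-fold lower, with an interval of -2.27 to 0.20 (edgeR adjusted p = 0.284). With the rat-number term it was -0.58 ± 0.50 (edgeR adjusted p = 0.497), and in the low-numbered rats alone -0.52 ± 0.67 (edgeR adjusted p = 0.702). Denervation against intact BAT with leptin gave 0.67 ± 0.59 (edgeR adjusted p = 0.578), and with the term 0.59 ± 0.48 (edgeR adjusted p = 0.449).

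Taking the members by direction, all 5 lay below 0 for leptin against vehicle, with a median log2 difference of -0.57 beside -0.03 over all tested genes, but with the rat-number term 3 lay below and 2 above, with a median of -0.20 beside -0.01. All 5 lay above 0 for denervation against intact BAT with leptin (median 0.67 beside 0.02), and 4 of 5 with the term (median 0.59). For ablation against denervation all 5 lay below 0 in both fits, with a median of -0.84 as designed and -0.65 with the term beside 0.01 and 0.02 over all genes. For ablation against intact BAT with leptin 3 lay above and 2 below in both fits. For ablation against vehicle 1 lay above and 4 below (median -0.72), and 2 above and 3 below with the term (median -0.03). For denervation against vehicle 3 lay above and 2 below (median 0.18), but all 5 above with the term (median 0.61). The members are correlated and Nppa and Nppb share a locus, so these counts are a description.

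In the 17 low-numbered rats the natriuretic peptide genes moved together from rat to rat, and so did Myh7 and Acta1. Because levels differed between the sets of rat numbers, the correlation was computed within each set on log2 CPM, over 10 pairs of members in each. In the 17 low-numbered rats Nppa and Nppb had a Pearson r of 0.82 (permutation adjusted p = 0.0005) and a Spearman rho of 0.82 (adjusted p = 0.0011). The r was 0.74 without the 2 rats farthest from the median of Nppa, and 0.77 after removal of the group means. Myh7 and Acta1 had an r of 0.80 (permutation adjusted p = 0.0008) and a rho of 0.78 (adjusted p = 0.00195). Their r was 0.75 without the 2 farthest rats and 0.77 after removal of the group means. Nppb also went with Acta1 (r = 0.65, rho = 0.69, permutation adjusted p = 0.0141 and 0.00712) and with Myh7 (r = 0.61, rho = 0.71, adjusted p = 0.0255 and 0.00650). After removal of the group means the r of Nppb was 0.59 with Acta1 and 0.63 with Myh7. The permutations ran over all 17 rats regardless of group, so the p-values take in differences between groups. Of the 10 pairs, the other 6 had an adjusted p above 0.05 for both r and rho, among them Myh6 with Myh7 (r = 0.41, rho = 0.54).

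In the 7 high-numbered rats Nppa and Nppb had an r of 0.78 and a rho of 0.86 (exact permutation p = 0.0520 and 0.0238, adjusted p = 0.260 and 0.119). Myh7 and Acta1 had an r of -0.30 and a rho of -0.11 there (exact permutation adjusted p = 0.847 and 0.963). Myh6 and Acta1 had an r of -0.85 and a rho of -0.93 (exact permutation adjusted p = 0.153 and 0.0675). No pair in that set passed after adjustment. All levels come from the same libraries and share their depth and scaling.

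**Figure D4:**
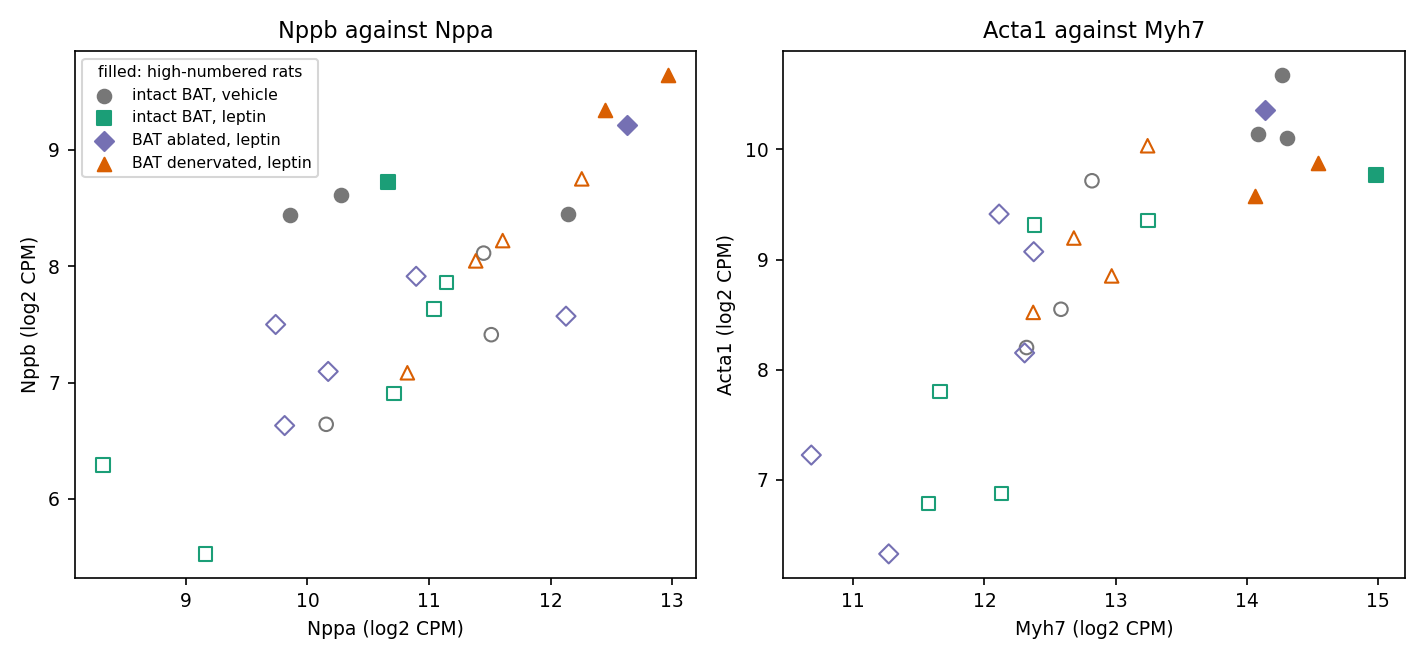
Log2 CPM of Nppb against Nppa (left) and of Acta1 against Myh7 (right) in the 24 libraries, by group, filled for the high-numbered rats. The open symbols rise together in both panels, with r of 0.82 and 0.80 over 17 rats, while the 3 filled vehicle rats lie close in Nppb, at 346 to 392 CPM, over Nppa levels from 928 to 4534 CPM.

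Outside the members, the gene most like Nppa in the 17 low-numbered rats after removal of group means was ENSRNOG00000011140 on chromosome 16 (16866603 to 16886433, minus strand, 1672 bp), with an r of 0.91 and a mean of 7.19 CPM. The gene most like Myh7 was ENSRNOG00000019996 on chromosome 2 (192124289 to 192144611, plus strand, 3299 bp), with an r of 0.95 and a mean of 205 CPM. Both are the highest of 13383 genes with a mean of at least 1 CPM, a choice that favours a high r, and no member was the nearest gene of another. The genes most like Nppb, Acta1 and Myh6, chosen in the same way, had an r of 0.96, 0.95 and 0.90.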

How the data were processed

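Per the labels' protocols, septal RNA from 24 rats was sequenced in paired reads. The authors deposited whole-number counts per gene. Per the submitters' processing notes, STAR 2.7.10a and featureCounts 2.0.2 were used, and per the file headers featureCounts 2.0.6 with Ensembl annotation 113 of mRatBN7.2, so the versions differ. The header gives no strand option and none that counts pairs once. Counts of 2 (19013) and 4 (12355) outnumber those of 1 (5161) and 3 (3060), as when both mates are counted. The values are therefore reads, not fragments. Reads that fall on overlapping or near-identical genes cannot be separated. Another 5 columns of counts, which belong to none of the listed samples, stayed out of every step, and 0 pairs of libraries were identical.

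The deposited counts were taken unchanged into edgeR 4.0.16 in R 4.3.3, with filterByExpr, TMM scaling and its quasi-likelihood test (robust fit, all 24 libraries in 1 model, Benjamini-Hochberg over 17347 genes, threshold 0.05). SE is the log2 difference divided by the root of the F statistic. The log2 Myh7 to Myh6 ratio used reads plus 1 per kb of exonic length and exact permutation tests with scipy 1.17.1, adjusted over 6 comparisons. Correlations used exact permutation for 7 rats and 100000 permutations for 17. Alternatives used DESeq2 1.42.0 and limma 3.58.1 (voom with sample weights), and the scripts were tested on simulated data. The members, gene lists and the boundary between rat numbers were chosen with earlier results of these data known. Beside the lists, the rule for other genes took the 2 identifiers most like each member. Of these only the one most like Nppa and the one most like Myh7 are described by identifier. Gene lists fixed by symbol were not run, because 0 of the 30562 identifiers were paired with a symbol in the tables at hand.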

Additional observations from a re-analysis of the deposited data

Results flagged for a closer look

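In 24 sets of 6 libraries (5 genes and the Myh7 to Myh6 log2 ratio, each in 4 groups), 3 highest values stood further from the rest than Dixon's 95% critical value of 0.625 allows, where chance gives about 1 in 20. In replicate 6 of leptin with intact BAT Myh7 was at 32537 CPM, with the next library at 9732 CPM. In replicate 6 of BAT ablation Myh7 was at 18079 CPM, with the next at 5315 CPM, and Nppb was at 592 CPM, with the next at 241 CPM. Both libraries are the single high-numbered rat of their group, and both lie within the range of the other high-numbered rats for Nppb (346 to 801 CPM), while the former had the highest Myh7 of all 24 libraries.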

How the results depend on the processing

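Depth limited little, since no member had under 4244 reads. Of the alternatives that leave out no library, 349 of 390 member differences kept their direction and their side of the threshold, and 70 of 78 counts of members called were unchanged. So were 29 of 30 ratio values, judged in the same way where tested. Ratio values from edgeR's differences have no test and were judged by direction and distance from the main value. The exception was that for leptin against vehicle, which kept its direction. Scaling by RLE, leaving out mitochondrial genes, keeping every gene with a read and a threshold of 0.1 changed no direction and no call of a member. The cause of the changes below was not tested.

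Members called as designed (0) became 1 with the rat-number term for ablation against intact BAT (Myh6), 3 (leptin against vehicle), 3 (denervation against intact BAT), 3 (ablation against vehicle) and 1 (denervation against vehicle) with limma-voom, and 0 to 1 when a library was left out of the fit with the term, an alternative added after the data were seen. The labels number the replicates and do not say that equal numbers pair rats. Same-numbered libraries correlated over 0.1 in 24 of 36 pairs of groups and numbers (range -0.34 to 0.73). The pairs of replicate 6, a high-numbered rat in every group, ran from 0.65 to 0.73. A replicate block thus partly carries the rat-number sets. A replicate block called 1 member for leptin against vehicle (Acta1) and 3635 of the 17347 genes tested, and a replicate block with the rat-number term called 1 for ablation against intact BAT (Myh6, beside 2808 genes) and 1 for denervation against intact BAT (Nppb, beside 977 genes). The replicate block moved Myh6 for leptin against vehicle to 0.18, and with the term the block gave 0.64 there, -0.064 for Myh6 in denervation against intact BAT, 0.17 for Nppb in ablation against vehicle and 0.15 for Myh7 in denervation against vehicle, each with the sign turned.

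Signs also turned for log2 differences short of the threshold. With the rat-number term these were Myh6 (0.72) and Myh7 (0.033) for leptin against vehicle, Myh6 (-0.11) for denervation against intact BAT, Nppb (0.16) for ablation against vehicle, and Myh7 (0.27) and Acta1 (0.018) for denervation against vehicle. With a length gradient beside the term they were Myh6 (0.74), Myh7 (0.12), Acta1 for ablation against intact BAT (-0.31), Myh6 for denervation against intact BAT (-0.14), Nppb for ablation against vehicle (0.067) and Myh7 for denervation against vehicle (0.20). In the low-numbered rats they were Myh6 for leptin against vehicle (1.01), Acta1 for ablation against intact BAT (-0.0051), Myh6 for denervation against intact BAT (-0.083), Nppa (-0.30) and Myh6 (0.24) for ablation against vehicle, and Myh7 (0.27) and Acta1 (0.30) for denervation against vehicle. Myh6 for leptin against vehicle was 0.041 with upper-quartile scaling and 0.031 with the compared groups alone, and Myh6 for denervation against vehicle was -0.58 with limma-voom.

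With 1 library left out, sign turns fell within these ranges: Myh6 -0.31 to 0.22 for leptin against vehicle. For ablation against intact BAT, Nppb ran from -0.11 to 0.83, Myh7 from -1.36 to 0.26 and Acta1 from -0.33 to 0.54. For denervation against intact BAT, Myh6 ran from -0.0087 to 0.50 and Myh7 from -0.058 to 1.19. Against vehicle, Nppa ran from -0.28 to 0.53 for ablation, and Myh6 from -0.038 to 0.43 and Myh7 from -0.44 to 0.080 for denervation. The log2 ratio ran from -1.20 to -0.76 for leptin against vehicle, from 0.31 to 0.75 for denervation against intact BAT and from -0.38 to 0.063 for ablation against denervation. Taken from edgeR's differences the ratio for leptin against vehicle was -0.35.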

Other observations

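The members were among the more variable abundant transcripts of the septum. After removal of the group means and of the rat-number sets, the SD of log2 CPM between rats was 1.00 for Nppa and 0.96 for Acta1, beside a median of 0.29 over the 1268 genes with a mean of at least 100 CPM, of which 99.4% and 99.2% varied less. Nppb (0.64, 94.7% varied less) and Myh7 (0.56, 90.7%) stood lower, and Myh6 (0.43, 79.1%) lowest. Removing the sets took the SD of Myh7 from 1.07 to 0.56 and that of Myh6 from 0.87 to 0.43, but that of Nppa only from 1.04 to 1.00. Within the 7 high-numbered rats Nppa was at 928, 1239 and 4534 CPM with vehicle and at 1624 CPM with leptin and intact BAT. It was at 6331 CPM after ablation and at 5591 and 8004 CPM after denervation. This order was seen after the values were known and was not tested. In the 17 low-numbered rats the operated and intact groups overlapped. Nppa ran there from 854 to 4471 CPM after ablation and from 1810 to 4892 CPM after denervation. It ran from 1139 to 2920 CPM with vehicle and from 319 to 2260 CPM with leptin and intact BAT. Ablation against vehicle gave a log2 difference of -0.30 in those rats.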
